A study of Arabidopsis thaliana with 4 samples.

Results

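Sets of genes of Arabidopsis thaliana, the thale cress, that are listed together by an array probe are described here. Their probes read at least 2-fold higher in apetala3 inflorescences than in wild-type inflorescences. Whether the genes of a set form a family was not checked. A member is a probe for which the platform annotation lists 2 or more genes, which was measured on all 4 arrays, had a mean log2 ratio of 1 or higher, and was above 0 on each array. Members were thus chosen by the log2 ratios of all 4 arrays, so their values are a description and carry no test. Of 7497 probes listing several genes, 7030 were measured on all 4 arrays and 87 are members, and they stand for 85 different gene sets out of 5665. A further probe met the same values and was left out by the rule. Both RNAs, apetala3 and wild type, were hybridised together on each of 4 two-channel arrays, with the mutant RNA in channel 1 on arrays 1 and 3 and in channel 2 on arrays 2 and 4. The allele, the genetic background, the age and the floral stages are not named by the labels, and nothing says whether the arrays came from separate plants.

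The MADS-box protein APETALA3 acts together with PISTILLATA to give petals and stamens their identity. Strong mutants make sepals and carpels where those organs would stand, so an inflorescence of the mutant holds a different mixture of organs. In a whole inflorescence, a change in the number of cells of a type and a change in RNA per cell cannot be told apart. Many Arabidopsis genes lie in families that arose by tandem or larger duplications, and paralogs can keep sequences so alike that a long oligonucleotide cannot be assigned to only 1 of them. A value of such a probe therefore belongs to the set of genes listed, and no gene of a set is said to have changed. The probe sequences were not used here.

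The members were a small share of the probes that list several genes. Of the 7030 on all 4 arrays, 88 (1.25%) met the rule, the left-out probe included, and 542 (7.71%) met its mirror image of a mean of -1 or lower and below 0 on every array. For single-gene probes the share was 1.37% higher and 5.97% lower, and for probes without a listed gene 1.18% and 6.83%. For all 25008 gene probes on all 4 arrays it was 1.24% higher and 6.89% lower. Empty spots, which carry no gene, were read in the same way as a background. Of 424 such spots, only 113 had values on all 4 arrays once those at the 100-fold limit were dropped. With limit values kept, 376 could be read and 43 (11.4%) met the rule. Of the 113, 14 (12.4%) met the rule while 4 (3.54%) met its mirror image. Their 14 means lay between 1.03 and 2.90 on the log2 scale with a median SD of 1.34 between arrays, against a median SD of 0.42 for the members. The median log2 ratio of these 14 on arrays 1 to 4 was 1.1, 1.47, 0.34 and 3.29, while that of the 87 members was 1.31, 1.51, 1.20 and 1.16. On arrays 1 and 2 these empty spots were thus close to the members, on array 3 below them and on array 4 above them. Both were picked by the same rule, so their nearness in level follows in part from that choice. Over all empty spots with a value, the medians were 0.76, 0.56, -0.27 and 0.84 on arrays 1 to 4, each below that of the members. What part the signal of unhybridised spots has in the members' values was not tested.

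0 probes listed AP3 or PI, so the targeted gene was not checked. The direction is the likely one and rests on anther genes, which read lower once channel 2 was taken as the numerator. Over gene probes, pairs of arrays turned to mutant over wild type correlated with a Pearson r of 0.62 to 0.82. Array 4 had the lowest limma array weight, 0.62, and array 1 the highest, 1.96.

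**Figure D1:**
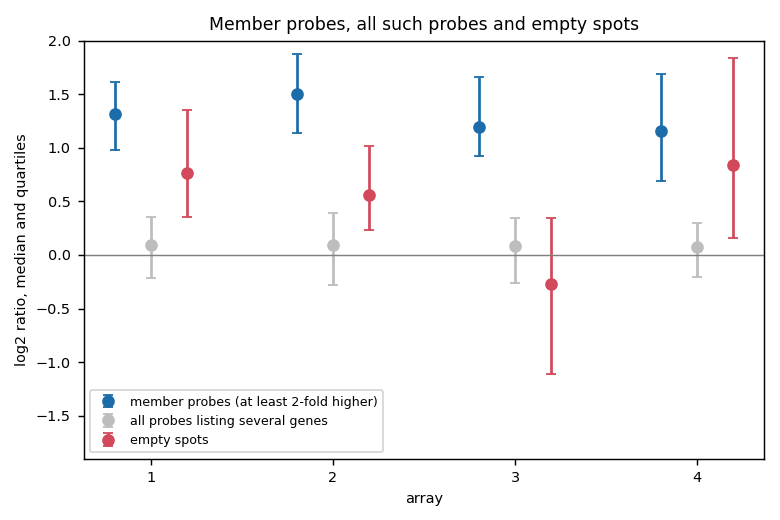
Median and quartiles of the log2 ratio, apetala3 over wild type, on each array for the 87 member probes (blue), all probes that list several genes (grey) and the empty spots (red). Member medians were 1.31, 1.51, 1.20 and 1.16 on arrays 1 to 4, and the medians of the empty spots were above 0 on arrays 1, 2 and 4 and below 0 on array 3.

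Most members were little above the threshold. The member means ran from 1.01 to 2.69 with a median of 1.21, against a median of 0.10 for all multi-gene probes on 4 arrays. Means of 2 or more were reached by 9 probes, means from 1.5 to 2 by 15, and the remaining 63 lay below 1.5. On every array the value was 1 or higher for 28 members, and 16 members had an array below 0.5.

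The highest mean belonged to the set AT5G11410, AT5G11400 and AT5G11360. Its log2 ratios on arrays 1 to 4 were 2.56, 2.65, 3.69 and 1.86, with a mean of 2.69 ± 0.75 (SD, n = 4 arrays), a 6.45-fold difference. Array 3 was the highest and array 4 the lowest, and all 4 were well above the 2-fold line. The 3 loci are near each other in gene order. A second member probe lists AT5G11410 and AT5G11400 together with AT5G11412 and AT5G25440, and its values of 1.02, 1.03, 1.09 and 0.95 were the most even of all members, with an SD of 0.06. A probe that lists AT5G11360 alone, which the rule did not choose among, read 1.18, 1.02, 1.18 and 1.40, a mean of 1.19. All 3 probes that list these 3 loci were thus near 1 or higher on every array.

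The set AT2G33847, AT1G28400 and AT2G33850 came next, with log2 ratios of 2.83, 2.84, 2.41 and 2.44 on arrays 1 to 4 and a mean of 2.63 ± 0.24 (SD, n = 4 arrays). Its arrays were close to each other. Another probe that lists AT1G28400 and AT2G33850 without AT2G33847 had a mean of 0.57, between 0.45 and 0.70, so probes sharing these genes differed in size. The set AT1G24420, AT4G15390 and AT3G30280 read 2.92, 2.58, 2.56 and 1.59, a mean of 2.41 ± 0.57, whereas a second probe of the same 3 genes was near 0, at 0.22, 0.08, 0.47 and 0.14. For AT5G17820 and AT3G03670, the values were 2.26, 2.45, 1.92 and 2.29, with a mean of 2.23 ± 0.22. That pair had no other probe on the array, and its 4 arrays differed little. Other probes are named for some of the sets below, and those measured on all 4 arrays are counted further on.

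Values of AT3G01185 and AT2G21655 were 1.47, 1.80, 3.09 and 2.16, with a mean of 2.13 ± 0.70 (SD, n = 4 arrays). Array 3 stood highest for this pair. The neighbouring genes AT2G15780 and AT2G15770 shared a probe at 1.85, 2.32, 1.78 and 2.24, a mean of 2.05 ± 0.27. AT5G42460 and AT2G17830 read 1.68, 3.43, 0.92 and 2.15, a mean of 2.04 ± 1.05. The set AT5G35405, AT4G13263 and AT4G13261 read 1.47, 1.79, 2.64 and 2.25, a mean of 2.04 ± 0.51. Among these 4 sets, AT5G42460 with AT2G17830 had by far the widest range, with array 2 high and array 3 low.

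Other sets were as high only because of 1 array. The probe of AT5G37650 and AT5G37400 read 0.82, 6.37, 0.73 and 0.51, so its mean of 2.11 ± 2.84 (SD, n = 4 arrays) rested on array 2 and was 0.69 without it. A second probe of this pair was likewise highest on array 2, at 0.43, 2.95, -0.13 and -0.03. The neighbouring genes AT4G30662 and AT4G30670 read 0.33, 6.37, 0.18 and 1.11, a mean of 2.0 ± 2.94 that was 0.54 without array 2. On array 2 both member probes carry the same deposited value, to its last decimal, and it was shared by 5 spots in all, 2 of them empty. The probe of AT5G37650 and AT5G37400 had a value equal to that of another spot on all 4 arrays. For AT4G30662 and AT4G30670 this held on 3 arrays. Among the 87 members, 7 (8.05%) had such values on 2 or more arrays, against 33.7% of the 7030 multi-gene probes. The set AT1G71950 and AT5G11940 read 0.63, 0.96, 4.30 and 1.99, a mean of 1.97 ± 1.66, with array 3 high. A probe listing AT1G71950 alone had a mean within 0.01 of 0 there, between -0.16 and 0.24. A probe listing AT5G11940 with AT1G32970, AT4G10550, AT4G10540 and AT4G10510 was below 0 on every array, with a mean of -0.73. Another of that longer list, measured on arrays 1 and 2 only, read 0.73 and 0.45.

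**Figure D2:**
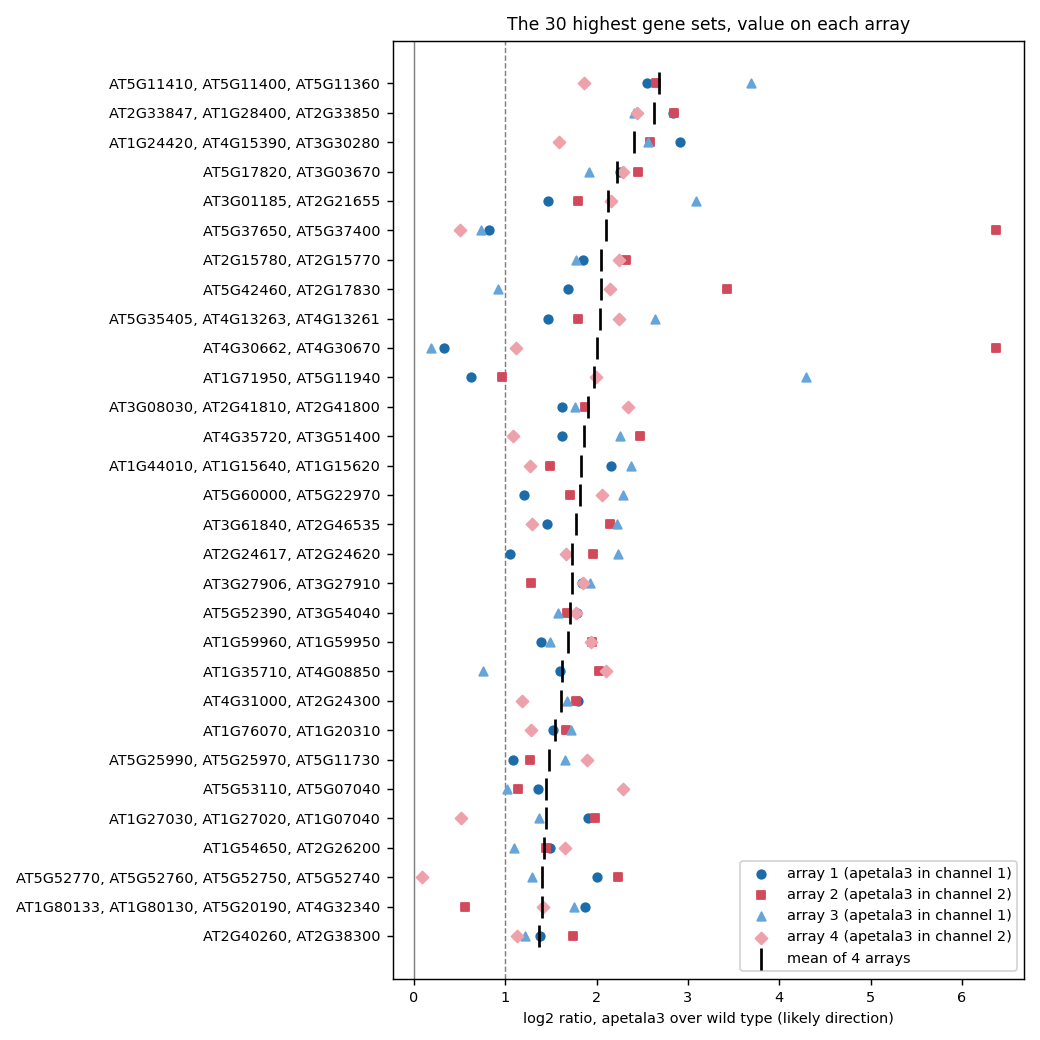
Log2 ratio, apetala3 over wild type, of the 30 gene sets with the highest means, with a symbol for each array and a bar at the mean of 4 arrays. The solid line marks 0 and the dashed line marks 1, the 2-fold threshold. Of the 30 sets, 22 were at 1 or above on every array, and array 2 stands apart at 6.37 for AT5G37650 with AT5G37400 and for AT4G30662 with AT4G30670.

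The next sets were at 1 or above on every array. AT3G08030, AT2G41810 and AT2G41800 read 1.62, 1.88, 1.76 and 2.35, a mean of 1.90 ± 0.31 (SD, n = 4 arrays). The probe of AT3G08030 alone had a mean of 0.46, and that of AT2G41810 and AT2G41800 a mean of -0.02. AT4G35720 and AT3G51400 read 1.62, 2.47, 2.26 and 1.08, a mean of 1.86 ± 0.63, while the probe of AT3G51400 alone was at -0.43 and below 0 on every array. All 4 arrays of both sets were above 1, and only AT4G35720 with AT3G51400 came close to that line, on array 4. AT1G44010, AT1G15640 and AT1G15620 read 2.16, 1.49, 2.38 and 1.27, a mean of 1.82 ± 0.53. AT3G61840 and AT2G46535 read 1.45, 2.14, 2.22 and 1.29, a mean of 1.78 ± 0.47. For both of these, array 3 was the highest and array 4 the lowest. A second probe of AT3G61840 and AT2G46535 was near 0, at -0.48, 0.07, -0.12 and 0.04, a mean of -0.12. The probe of AT1G44010 alone was at -0.38, and probes of AT1G15640, AT1G15620 and AT1G15600 were at 0.17 and -0.47.

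The neighbouring genes AT2G24617 and AT2G24620 read 1.06, 1.96, 2.23 and 1.66, a mean of 1.73 ± 0.50 (SD, n = 4 arrays). Likewise neighbours, AT3G27906 and AT3G27910 read 1.84, 1.28, 1.93 and 1.85, a mean of 1.73 ± 0.30. The first pair was lowest on array 1 and the second on array 2. AT5G52390 and AT3G54040 read 1.79, 1.68, 1.58 and 1.77, a mean of 1.70 ± 0.10. A second probe of that pair read -0.40, -0.45, -0.65 and -0.03, so 2 probes with the same annotation lay on opposite sides of 0 on all 4 arrays.

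Member probes with means between 1.5 and 1.7 had no array below 0.76. The neighbouring genes AT1G59960 and AT1G59950 read 1.39, 1.95, 1.49 and 1.94, a mean of 1.69 ± 0.29 (SD, n = 4 arrays). Their second probe read 0.49, 0.22, 0.80 and -0.11, a mean of 0.35. AT1G35710 and AT4G08850 read 1.59, 2.03, 0.76 and 2.1, a mean of 1.62 ± 0.62, and a second probe of the same pair was above 0 on every array, at 0.97, 0.96, 0.46 and 0.20. The second probe was lowest on array 4, where the member probe was highest. AT4G31000 and AT2G24300 read 1.80, 1.78, 1.68 and 1.18, a mean of 1.61 ± 0.29. Their second probe read 0.22, 0.51, 0.52 and -0.18, a mean of 0.27. AT1G76070 and AT1G20310 read 1.52, 1.66, 1.72 and 1.28, a mean of 1.55 ± 0.20. In these last pairs array 4 was the lowest.

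Array 4 was the lowest for each of the next sets. The set AT1G27030, AT1G27020 and AT1G07040 read 1.91, 1.98, 1.37 and 0.51, a mean of 1.45 ± 0.68 (SD, n = 4 arrays). A probe of the neighbours AT1G27030 and AT1G27020 read 1.5, 2.14, 0.98 and -0.14, a mean of 1.12 with the same order of arrays, whereas the probe of AT1G07040 alone was at -0.56. The neighbouring genes AT5G52770, AT5G52760, AT5G52750 and AT5G52740 shared a probe at 2.0, 2.24, 1.29 and 0.08, a mean of 1.40 ± 0.97. Within that set, the probe of AT5G52740 alone read 0.72, 1.58, 0.72 and -0.08, and that of AT5G52770 alone had a mean of 0.21. The probe of AT5G52760 and AT5G52750 had a mean of -0.03, between -0.41 and 0.29. The single-gene probe nearest in level to the shared probe was therefore that of AT5G52740, which like it was highest on array 2 and near 0 on array 4.

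The other sets of the highest 30 lay at 1.37 to 1.48. AT5G25990, AT5G25970 and AT5G11730 read 1.09, 1.27, 1.65 and 1.90, a mean of 1.48 ± 0.37 (SD, n = 4 arrays). The probe of AT5G25990 alone had a mean of -0.04, and that of AT5G25970, AT5G16170 and AT5G11730 a mean of 0.20. AT5G53110 and AT5G07040 read 1.36, 1.14, 1.02 and 2.29, a mean of 1.45 ± 0.58. The probe of AT5G07040 alone had a mean of 0.34. In both sets array 4 was the highest, and the available single-gene probe was well below the shared one. AT1G54650 and AT2G26200 read 1.49, 1.44, 1.1 and 1.65, a mean of 1.42 ± 0.23. AT1G80133, AT1G80130, AT5G20190 and AT4G32340 read 1.87, 0.56, 1.75 and 1.41, a mean of 1.40 ± 0.59. AT2G40260 and AT2G38300 read 1.38, 1.74, 1.21 and 1.13, a mean of 1.37 ± 0.27. Of these 3, only the set with AT1G80130 had an array below 1, array 2.

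For 2 gene sets, 2 member probes each stood for the same genes. The first probe of AT5G60000 and AT5G22970 read 1.20, 1.70, 2.29 and 2.06, a mean of 1.81 ± 0.48 (SD, n = 4 arrays). The second read 1.39, 1.79, 2.02 and 1.79, a mean of 1.75 ± 0.26. On both, array 1 was the lowest and array 3 the highest. The neighbouring loci AT5G44585, AT5G44582 and AT5G44580 had probes at 1.62, 1.14, 1.05 and 1.18 and at 1.5, 1.30, 0.79 and 1.01, with means of 1.25 and 1.15. Array 1 was the highest and array 3 the lowest on both of these.

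The annotation gave a gene symbol to a gene of 9 of the 85 sets, and these 9 are described by function whatever their rank, a choice made after their values were seen. The other 76 sets list loci without a symbol, and no function is given for them here. The probe of VDD, AT5G18090 and REM22 read 0.71, 1.12, 1.1 and 1.68, a mean of 1.15 ± 0.40 (SD, n = 4 arrays). VDD (VERDANDI) is a B3-domain transcription factor of the ovule that acts in the female gametophyte, and REM22 belongs to the same REPRODUCTIVE MERISTEM family. A probe of VDD and AT5G18090 was at 0.24, with all arrays between 0.02 and 0.42, and that of REM22 alone had a mean of -0.07 (limma adjusted p = 0.814).

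Beta-expansins loosen the cell wall during growth. The shared probe of EXPB3 and EXPB1 read 1.04, 1.27, 0.69 and 1.19, a mean of 1.05 ± 0.26 (SD, n = 4 arrays). A second probe of the same pair read 0.86, 0.58, 0.29 and 0.53, a mean of 0.56, so both were above 0 on all arrays and lowest on array 3. Among single-gene probes of expansins and of XTH enzymes, which cut and rejoin xyloglucan in the wall, 1 of 11 rose and 4 fell by limma, with a median of -0.24. The background by the same test was 8.81% higher and 8.37% lower among the 5662 single-gene probes, whose median was 0.13. Among all gene probes 8.28% were higher by that test. EXPA20 rose by 0.90 ± 0.10 (SE, limma adjusted p = 0.00341). EXPA24 fell by 3.34, measured on 3 arrays, and EXPB5 fell by 2.98 (limma adjusted p = 0.0033 and 0.0021).

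The UDP-glycosyltransferase probe lists AT1G01390, UGT72B3, GT72B1 and UGT88A1, enzymes that attach sugars to small molecules. Its log2 ratios were 1.21, 0.75, 1.69 and 1.17, a mean of 1.21 ± 0.38 (SD, n = 4 arrays). Single-gene probes of GT72B1 and UGT88A1 were at 0.24 and 0.33, and a probe of the neighbours AT1G01390 and UGT72B3 was at 0.74, with all 4 of its arrays above 0. The probe of the latter pair was thus the nearest in level to the shared probe. Of 26 single-gene probes matched by keyword to glycosyl transfer, XTH genes included, 2 rose and 2 fell, with a median of 0.17, and the share that rose was close to the background of 8.81%. UGT73C1 rose by 1.20 ± 0.14 (SE, limma adjusted p = 0.00508), and UGT85A5 by 0.42. XTH19 and UGT74D1 fell by 1.69 and 0.47.

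A class V chitinase, ChiC, shares a probe with its neighbours AT4G19820, AT4G19800 and AT4G19720. Chitinases cleave chitin and are often induced by pathogens and stress. The probe read 1.51, 0.26, 0.95 and 1.85, a mean of 1.14 ± 0.70 (SD, n = 4 arrays), and was lowest on array 2. A probe of ChiC and AT4G19820 alone read 0.47, 1.12, 1.44 and 0.22, a mean of 0.81, with a different order of arrays. Of 3 single-gene probes of the pathogenesis-related keyword list, 0 passed limma's threshold, with 1 at an unadjusted p under 0.05 and a median of 0.36. Among all single-gene probes 8.81% were higher and 8.37% lower by limma's threshold.

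Calmodulin-like proteins bind calcium and relay its signals, and several of them respond to wounding. The probe of CML38, AT1G76640 (CML39), CML37, CML41 and AT3G01830 read 1.31, 1.30, 0.93 and 0.58, a mean of 1.03 ± 0.35 (SD, n = 4 arrays). Other probes split this set. Those of CML41 alone and AT3G01830 alone were at 0.61 and 0.54, while the probe of CML38 and AT1G76640 read -0.24, -0.85, -0.43 and -0.25, below 0 on every array.

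Cation/H+ exchangers of the CHX family move potassium and other cations across membranes, and many of the family's genes are known from pollen. The shared probe of CHX28 (listed as chx28) and CHX15 read 0.60, 1.39, 0.64 and 1.86, a mean of 1.12 ± 0.61 (SD, n = 4 arrays). The probe of chx28 alone read -2.55, -1.59, -2.79 and -1.46, a mean of -2.10. That of CHX19 and CHX15 read -3.38, -3.08, -2.68 and -2.64, a mean of -2.94. Probes listing CHX15 or CHX28 therefore lay on both sides of 0 with no overlap between them on any array.

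NANA, an aspartic protease of the chloroplast, shares a probe with AT1G31450 and AT2G35615 that read 1.07, 0.79, 1.81 and 0.96, a mean of 1.16 ± 0.45 (SD, n = 4 arrays). The probe of NANA alone was at 0.19. CW7, AT1G58460, AT1G58420 and XW6 shared a probe at 1.59, 1.47, 1.15 and 0.22, a mean of 1.11 ± 0.62. The other probes listing CW7, AT1G58420 and XW6, some with further genes and each without AT1G58460, had means from -0.05 to 0.62. ZCF37 and AT1G10225 read 1.54, 0.75, 1.57 and 0.52, a mean of 1.09 ± 0.54. In that pair the arrays with apetala3 in channel 1 were the higher ones.

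The 45 sets not given by rank, number of probes or symbol had means from 1.01 to 1.33 and SDs between 0.06 and 2.01. Their values on single arrays ran from 0.02 to 4.34. The members nearest above the threshold were AT1G72910 with AT1G72900 at 1.01, AT1G72720 with AT5G11970 and AT2G19460 at 1.01, and AT1G12630 with AT5G52020 at 1.02. Just below it, AT5G39030 with AT5G39020 and UGT73B4 with UGT73B5 had means of 0.998, and AT5G59670 with AT5G59660 was at 0.99, each above 0 on all 4 arrays. A further 12 multi-gene probes had a mean of 1 or higher with an array at or below 0, and 47 had one over fewer than 4 measured arrays.

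Arrays differed in how they carried the members. Array 2 gave the highest value for 33 of 87 member probes and array 4 for 12, while array 4 gave the lowest for 32. At least a log2 ratio of 1 was read for 64, 71, 61 and 55 members on arrays 1 to 4. In 8 members a single array exceeded the sum of the other 3, and that array was array 2 in 7 of them and array 3 in 1. Of these 8, the probe of AT1G47810 and AT1G47800 read 0.31, 4.34, 0.12 and 0.56, and that of AT5G01760 and AT2G38410 read 0.27, 3.36, 0.14 and 1.12. Without array 2, 23 members had a mean below 1 over the remaining arrays.

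Compared by channel orientation, 52 of 87 members had a mean of 1 or higher both on arrays 1 and 3 and on arrays 2 and 4. The orientation means differed by more than 1 for 7 members, and all 7 were higher with apetala3 in channel 2. In 5 of the 7, array 2 alone exceeded the sum of the other arrays, and for AT5G37650 with AT5G37400, array 4 of the same orientation was the lowest. They ranged from CHX28 with CHX15, at 0.62 against 1.62, to AT4G30662 with AT4G30670, at 0.26 against 3.74. What part the channel has in these values was not tested.

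**Figure D3:**
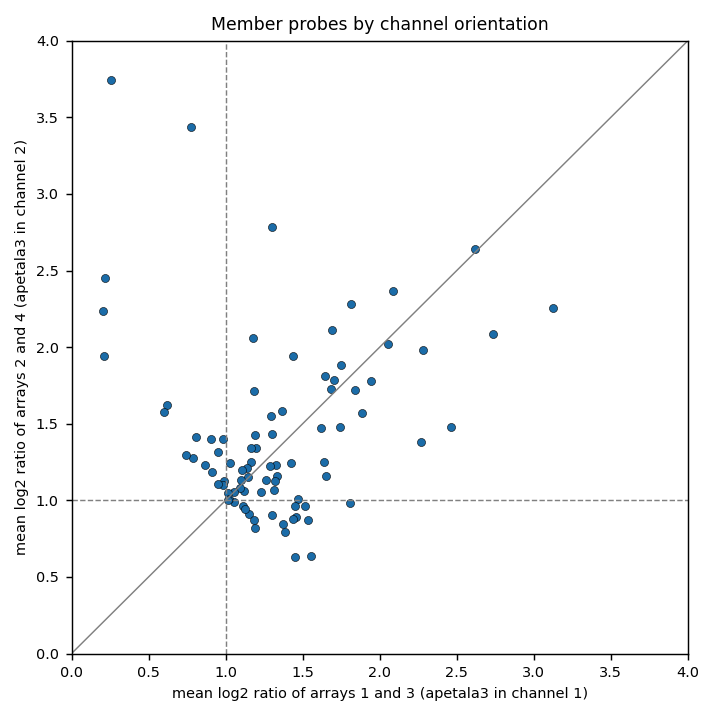
Mean log2 ratio of each of the 87 member probes on arrays 1 and 3 (apetala3 in channel 1, horizontal axis) and on arrays 2 and 4 (apetala3 in channel 2, vertical axis), with the line of equal values and dashed lines at 1. In all, 52 probes lie at 1 or above on both axes, and the probes with the largest differences lie toward higher values on arrays 2 and 4.

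Other probes on the same arrays listed the members' genes, and most of them were close to 0. Of the 85 sets, 77 had another probe naming at least 1 of their genes, member probes included. The probes that were no members came to 130 pairings with a member on all 4 arrays, over 75 sets. Their median was 0.20, with 83 above 0, 85 within 0.5 of 0, and 25 at 0.5 or higher. In 2 pairings (1.54%) the other probe met the rule for higher values, AT5G11360 with its mean of 1.19 and AT1G53070 at 1.08. AT1G53070 is a neighbour of AT1G53080 and AT1G53060, with which it shares a member probe at 1.04 ± 0.55 (SD, n = 4 arrays), and the probe of AT1G53060 alone was at 0.92. In 12 pairings (9.23%), covering 9 member sets, the other probe was at least 2-fold lower on the mean and below 0 on all 4 arrays. The lower share was near the 7.71% of all multi-gene probes, so that count is no result about the members. The higher share cannot be set against a background of multi-gene probes. Apart from the left-out probe, those that met the rule are members and so are not in the pairings. Only the 30 pairings with a single-gene probe could meet it, and 2 did, against 1.37% of all single-gene probes. That contrast was not tested.

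Those 9 sets with a lower probe are singled out after their values were seen, to show how far probes of shared genes can differ. Among probes listing exactly the same genes, the largest difference was that of the neighbours AT2G04020 and AT2G03980. Their member probe read 1.66, 0.86, 1.37 and 1.06, a mean of 1.24, and their second probe read -4.89, -4.23, -4.81 and -3.21, a mean of -4.29. AT3G52740 with AT3G44450 had means of 1.27 and -1.43. AT3G23480 with AT3G23470 had 1.17 and -1.63, and AT4G23720 with AT4G01140 had 1.03 and -2.01. In each of these 4 pairs the 2 probes lay on opposite sides of 0 on every array.

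In the remaining 5 sets the lower probe shared only some of the genes. The member probe of AT1G54120, AT3G14060 and AT3G14040 was at 1.20 ± 0.37 (SD, n = 4 arrays), while probes of AT3G14040 and AT3G07850 were at -4.30, -5.75 and -5.81. A probe of AT1G54120 and AT3G14060 without AT3G14040 was at 0.13. The set of AT1G24420, AT4G15390 and AT3G30280, whose member probe was at 2.41, shares AT4G15390 and AT3G30280 with a probe at -4.14 that also lists AT5G47950 and AT3G26040. A second probe of that same longer list was at 0.07. Pairs of the other sets were smaller in difference, with AT1G28710 and AT1G28700 at -1.99 against 1.09 for their 4-gene set, and AT3G59850 with AT2G43870 in a 4-gene set at -1.49 against 1.13. The CHX set is the fifth of these.

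**Figure D4:**
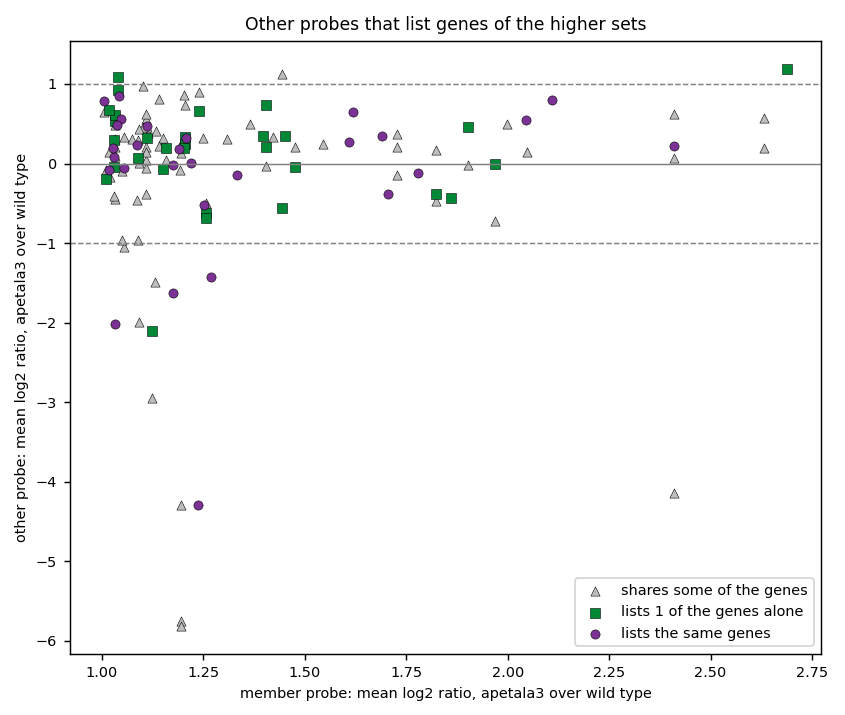
Mean log2 ratio of each member probe (horizontal axis) and of every other non-member probe measured on 4 arrays that lists at least 1 of its genes (vertical axis), by whether it lists the same genes, shares some of them, or lists 1 alone. Dashed lines mark 1 and -1. Most of the 130 points lie near 0, with a median of 0.20, and the lowest is at -5.81.

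Gene sets reduced in apetala3 were compared in the same way. Of the 85 higher sets, 30 had 2 or more probes listing exactly the same genes on all 4 arrays, and for 2 of the 30 (6.67%) another probe met the same rule, the sets with 2 member probes given above. The median of the other probes was 0.21. Of the 494 sets that met the mirror rule for lower values, 183 had such a probe and 42 (23.0%) had another that met it, with a median of -0.21. Among the 104 sets at least 8-fold lower, 42 had such a probe and 21 had another at least 2-fold lower, with a median of -0.89. The backgrounds differ too, since 1.25% of all multi-gene probes on 4 arrays met the rule and 7.71% met its mirror image. The shares of higher and lower sets are therefore not on a like footing. They rest on the values that chose the sets and were not tested.

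A feature that the rule did not use is where the genes lie. In 38 of the 85 sets (44.7%), 2 or more listed genes were within 10 genes of each other in the gene order of the TAIR10.1 annotation. The share was 26.9% among all 5665 multi-gene sets and 24.0% among the 104 sets at least 8-fold lower. Sets of exactly 2 genes made up 57.6% of the higher sets and 65.8% of all sets, so lists were compared at equal length. With 2 genes listed, 12 of 49 higher sets (24.5%) and 20.5% of all such sets held neighbours. With 3 genes it was 16 of 26 (61.5%) against 34.8%, and with 4 genes 9 of 9 against 49.2%. These shares were not tested. In all, 215 genes were listed, and 2 of them, AT5G11410 and AT5G11400, were in more than 1 set.

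Markers of floral organs gave the setting of these values. By limma, 8.81% of all 5662 single-gene probes were higher and 8.37% lower. Of 6 single-gene probes on the tapetum and pollen wall list, 5 fell, with a median of -3.42, and this list is the one on which the direction rests. The pollen and nectary lists had 1 probe each, TUA1 at -0.44 and SWEET9 at -4.79, and both fell. Of 4 probes on the carpel and ovule list, 1 rose, that of CES at 1.85 ± 0.14 (SE, limma adjusted p = 0.00117), and the 3 probes of INO were between -0.06 and 0.48. Both probes of the egg cell list rose, EC1.1 by 1.34 ± 0.20 and EC1.5 by 0.97 ± 0.19 (limma adjusted p = 0.0111 and 0.024). The probe of the photosynthesis list, LHB1B2, was at 0.49 (limma adjusted p = 0.187), and 0 probes were measured for the petal list. What part organ makeup has in the members' values was not tested.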

How the data were processed

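The authors deposited a log2 ratio of both channels for every spot. For its processing the labels point to an earlier publication. Scanner, background correction and centring: not given in the sources used here. Ratios were turned to apetala3 over wild type by the channel of the mutant RNA, and values at the 100-fold limit (absolute log2 ratio above 6.6438) were treated as not measured. Of 26933 spots, 26474 were gene probes, of which 5784 listed 1 gene, 7497 several and 13193 none in the platform annotation. All 215 genes listed by members were matched by gene ID to the RefSeq table of TAIR10.1. Members and lists were chosen with earlier results of these data known. Values per array are given for the 30 highest sets, sets with 2 member probes and sets with a gene on a marker list, of which there were 0. Sets with a symbol, a lower probe or an array far above the rest were added after their values were seen. A planned grouping by product name could not be made, since the tables hold gene symbols and not product names.

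The 25920 probes with values on 3 or 4 arrays were tested against 0 with limma 3.58.1 in R 4.3.3 (lmFit, eBayes, Benjamini-Hochberg), and 2146 (8.28%) were higher and 2600 (10.0%) lower. The procedure was tested on simulated data. Limma was used for the background and for single-gene probes of the marker lists (tapetum and pollen wall, pollen, petal, carpel and ovule, egg cell, nectary, photosynthesis) and of the 4 keyword lists that held a member's gene (B3 and REM, pathogenesis-related, glycosyltransferase, expansin and XTH). The number of arrays limits the precision, and the p-values reflect differences between arrays alone, possibly technical ones.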

Additional observations from a re-analysis of the deposited data

Results flagged for a closer look

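A single array stood far from the rest on 8 of 87 member probes. At 1 in 20, chance would give about 4.35 among probes not chosen by their values. The members were chosen by these same values, which lets in probes lifted by 1 high array. The count is thus a description and cannot be read as above chance. Array 2 was the distant one on 7 of them. It was high for AT5G37650 with AT5G37400 (6.37), AT4G30662 with AT4G30670 (6.37), AT1G47810 with AT1G47800 (4.34) and AT2G13895 with AT1G53340 and AT5G02360 (2.35). Smaller gaps were seen on array 2 for AT3G52740 with AT3G44450 (1.52) and AT4G39280 with AT3G58140 (1.28), and AT3G27906 with AT3G27910 was low there (1.28). On array 4, AT1G65570 with AT3G59850 and AT2G43870 was high (1.71).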

How the results depend on the processing

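Every log2 ratio is already a difference between both RNAs of an array, so the tests against 0 are paired within arrays. No paired analysis was possible because no label pairs the arrays with each other, beyond that pairing within them. The 87 probes and 85 sets became 62 and 60 after median centring of the arrays, all of them among the 87. Without 1 array in turn there were 78 to 123 probes and 76 to 121 sets, and without array 2, 64 of the 87 were kept. The arrays with apetala3 in channel 1 alone gave 128 sets, and those with it in channel 2 gave 159 probes and 156 sets. A mean of 1.5 or higher left 24 probes and 23 sets. With the sign turned, 542 probes and 494 sets met the rule. The share of empty spots that met the rule was 27.4% without array 3 and 5.77% without array 4. The median of the members was 1.11 to 1.30 over the alternatives run. Without array 2, 23 of the 87 had a mean below 1, among them AT5G37650 with AT5G37400 at 0.69 and AT4G30662 with AT4G30670 at 0.54.

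Limma's counts moved more. Without 1 array in turn, 1836 to 5041 probes passed, 345 to 2405 higher and 1491 to 2636 lower, the fewest without array 1. Without arrays 2 and 3, 2109 and 2823 passed. Higher probes numbered 1421 with limit values kept, 1061 with centring, 3767 with array weights and 1422 with a constant channel effect. An adjusted p under 0.01 gave 1662, with 306 higher and 1356 lower. Decreases were 54.8% of calls as deposited, 73.5% with centring and 81.2% without array 1. With array weights they were 45.0%, 3087 probes, so that increases were the more frequent. List probes past the threshold were 18, and 12 to 19 under the alternatives. Apart from the fewer arrays or stricter thresholds themselves, the cause was not tested.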
